A study of Caenorhabditis elegans with 2 samples.

Results

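The DREAM complex of Caenorhabditis elegans was examined through the genes that encode its subunits, to ask which of them carried a ChIP-seq summit of the F33H1.4 protein. The 8 genes were lin-9, lin-35, lin-37, lin-52, lin-53, lin-54, efl-1 and dpl-1, of 19973 protein-coding genes on the nuclear chromosomes. They are known subunits of the complex and were kept whether or not a peak lay there. The set was chosen with earlier results of these data known, so its counts are descriptions. For each, every summit from 1000 bp upstream of the annotated 5' end to the 3' end was taken. A summit is the position of highest signal within a peak. The animals were of strain RW12303, with a TY1, EGFP and 3xFLAG tag on F33H1.4 (allele st12303, chromosome II). The strain label gives this as a CRISPR insertion targeting F33H1.4, while another label calls the animals transgenic, and which holds was not tested. Both samples were biological replicates of whole young adults aged 62.5 hours, grown from L1 larvae that had been starved after bleaching, and chromatin sheared to 200 to 800 bp was precipitated with an antibody to GFP. There was 1 genotype, 1 stage and no second condition. Whole animals mix all tissues, so a peak cannot be placed in a cell type, and fewer cells with the protein at a site and less protein per cell cannot be told apart. No untagged or input library was analysed here.

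DREAM is the worm form of the Rb and E2F repressor complexes of animals, and in C. elegans it is also called DRM. LIN-35 is the single Rb-like pocket protein, EFL-1 and DPL-1 form the E2F and DP pair that contacts DNA, and LIN-9, LIN-37, LIN-52, LIN-53 and LIN-54 make up the MuvB core. LIN-54 binds the cell cycle homology region (CHR), and LIN-53 is a histone-binding protein that also serves in other chromatin complexes. The complex represses cell cycle and germline genes, and most of its subunits were found as synMuv B genes, a class of vulval development genes that act redundantly with a synMuv A class.

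The sequences around 5 of the member summits are shown because they differ in the words they hold, together with 3 peaks of other genes that stand beside lin-9 at the top of the list. Each line gives 161 bases centred on the summit, on the plus strand of build ce11 (WBcel235, RefSeq genome), 5' to 3'. Capitals mark words described with the results, on either strand: GGTCTC and its variant with the fifth base changed, the word TACGGT, the longer word GTGGAGCGC, the common CHR form TTTGAA and the E2F-like word GGCGCGC.
lin-9 (chrIII:8904194-8904354): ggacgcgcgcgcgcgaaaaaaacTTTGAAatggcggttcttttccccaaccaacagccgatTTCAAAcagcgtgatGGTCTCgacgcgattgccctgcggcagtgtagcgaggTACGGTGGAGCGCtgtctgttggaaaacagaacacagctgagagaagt
lin-54 (chrIV:13240598-13240758): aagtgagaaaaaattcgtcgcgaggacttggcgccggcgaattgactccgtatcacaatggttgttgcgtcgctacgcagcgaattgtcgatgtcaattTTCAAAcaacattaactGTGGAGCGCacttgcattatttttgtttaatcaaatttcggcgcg
efl-1 (chrV:16965805-16965965): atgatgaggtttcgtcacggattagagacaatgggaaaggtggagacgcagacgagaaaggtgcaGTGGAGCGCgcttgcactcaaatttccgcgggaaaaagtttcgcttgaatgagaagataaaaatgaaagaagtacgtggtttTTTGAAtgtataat
lin-52 (chrIII:9825623-9825783): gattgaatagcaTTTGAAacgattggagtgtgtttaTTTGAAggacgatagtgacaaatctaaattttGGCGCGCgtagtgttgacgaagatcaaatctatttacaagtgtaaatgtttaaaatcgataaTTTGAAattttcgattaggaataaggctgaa
dpl-1 (chrII:9169577-9169737): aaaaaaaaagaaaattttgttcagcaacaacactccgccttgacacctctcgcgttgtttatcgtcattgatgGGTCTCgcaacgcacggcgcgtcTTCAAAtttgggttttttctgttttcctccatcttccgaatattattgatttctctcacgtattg
Y55F3AR.2 (chrIV:1094276-1094436): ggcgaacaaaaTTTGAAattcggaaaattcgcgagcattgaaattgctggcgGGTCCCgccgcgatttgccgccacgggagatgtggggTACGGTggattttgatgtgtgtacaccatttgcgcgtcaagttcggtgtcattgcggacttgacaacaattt
cap-2 (chrII:10868879-10869039): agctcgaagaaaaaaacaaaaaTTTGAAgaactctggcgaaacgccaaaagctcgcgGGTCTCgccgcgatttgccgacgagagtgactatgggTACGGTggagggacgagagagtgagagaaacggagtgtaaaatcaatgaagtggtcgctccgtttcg
Y25C1A.8 (chrII:3077034-3077194): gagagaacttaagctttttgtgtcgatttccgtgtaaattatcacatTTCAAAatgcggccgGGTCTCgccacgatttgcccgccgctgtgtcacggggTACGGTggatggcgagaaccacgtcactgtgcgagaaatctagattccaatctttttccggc

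Of the 8 subunit genes, 6 had a summit in the series list, which the authors made from both replicates and which held 3250 peaks. Across all protein-coding genes, 14.8% had a summit in the same window. The list of replicate 1 (2219 peaks) gave 4 members against 11.2% of all genes, and that of replicate 2 (2733 peaks) gave 5 against 13.6%. The 4 genes found in the lists of both replicates were lin-9, lin-35, lin-53 and lin-54, beside 10.4% of all genes. A companion list that the authors call conservative (3165 peaks) also held 6, against 14.4%, but not the same 6, since dpl-1 replaced lin-52. lin-37 had no summit in any of these 4 lists. The members differed widely in strength. Their best signals in the series list ran from 79.2 to 7044, where signal is the authors' own measure of peak strength with no stated unit, and the list's median was 163.

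**Figure D1:**
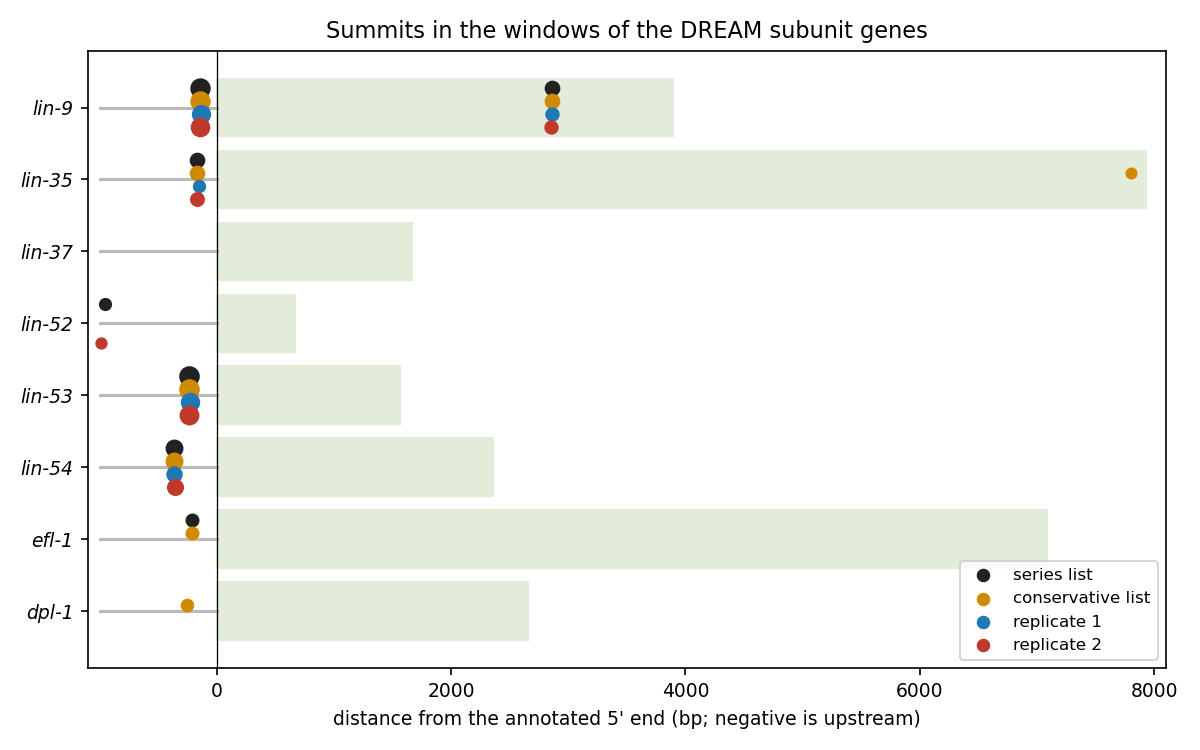
Position of each summit (dots) relative to the annotated 5' end, in bp, for the 8 DREAM subunit genes. Green bars are the genes, grey lines the 1000 bp upstream, colours the 4 lists, and larger dots have a higher signal. In the series list all 6 genes with a summit have one upstream of the 5' end, and only lin-9 has another inside the gene.

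**Figure D2:**
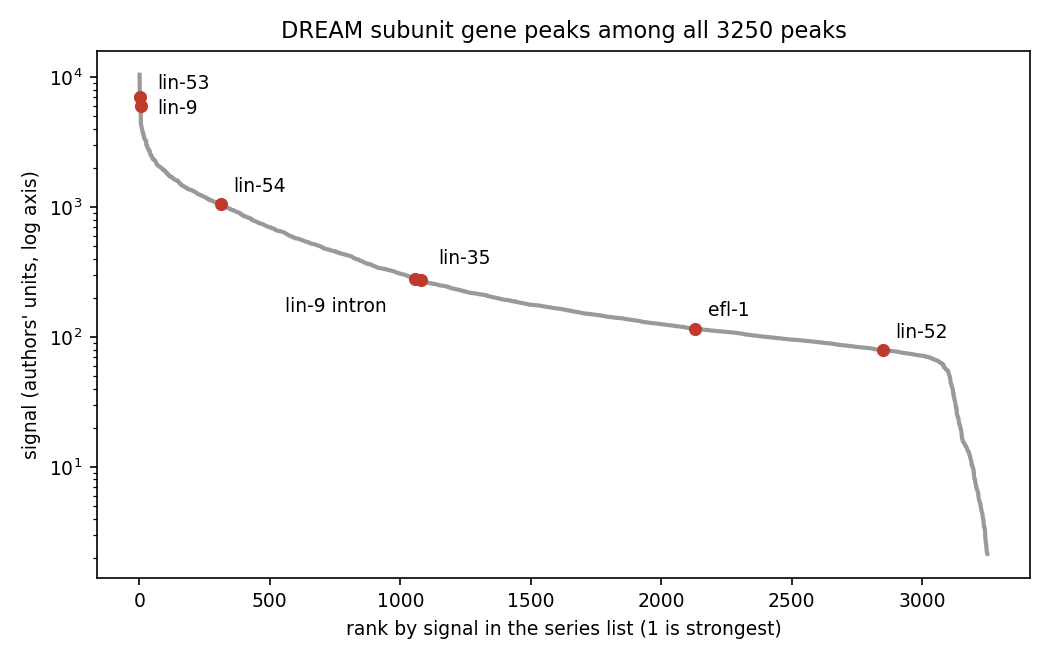
Signal (authors' units, log axis) of all 3250 peaks of the series list in order of rank, with the peaks of DREAM subunit genes in red. lin-53 and lin-9 lie at ranks 3 and 5, and efl-1 and lin-52 lie at ranks 2130 and 2849.

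The MuvB core held both the strongest and the weakest members. At lin-53 (WBGene00003036, minus strand, chromosome I, 9618196 to 9619760) the peak ran from 9619753 to 9620241 with its summit 233 bp upstream. Its signal was 2938 in replicate 1, 4134 in replicate 2 and 7044 in the series list, which were ranks 3, 2 and 3. The summits of the replicates lay 3 bp apart. nra-2, which encodes a nicalin-related membrane protein, starts on the other strand with its 5' end 467 bp from that of lin-53, and the summit stood almost midway, 234 bp from it. This one peak therefore cannot be given to either gene by position. The neighbour on the other side, rba-1, encodes a close paralogue of LIN-53 and begins beyond a gap of 88 bp, yet no summit lay in its window.

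At lin-9 (WBGene00002998, minus strand, chromosome III, 8900237 to 8904131) the promoter peak ran from 8903982 to 8904521 with its summit 143 bp upstream. Its signal was 2591 in replicate 1, 3457 in replicate 2 and 6034 in the series list, at ranks 4, 5 and 5. It was the only member peak in the series list upstream of a gene that no other gene's window shared. lin-9 stood at rank 8 of the 2947 genes with a summit when each gene was ranked by its best peak, and lin-53 at rank 5.

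A weaker summit of lin-9 lay 2857 bp into the gene, in an intron, in a peak from 8901164 to 8901383. It had a signal of 139 in each replicate and 282 in the series list (rank 1055). Beyond the 3' end, and so outside the window, a further peak from 8899734 to 8900197 had its summit 332 bp past the gene. That peak was stronger than the intronic one, with 409 in replicate 1, 652 in replicate 2 and 1063 in the series list, and it lay in the windows of a piRNA gene (21ur-13808) and a pseudogene (WBGene00014987).

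lin-54 (WBGene00003037, plus strand, chromosome IV, 13241044 to 13243401) encodes the CHR-binding subunit. Its peak, from 13240505 to 13240839, had a signal of 445 in replicate 1, 624 in replicate 2 and 1056 in the series list, at ranks 268, 330 and 312. The summit lay 366 bp upstream of lin-54 but only 27 bp upstream of rpl-12, a ribosomal protein gene on the opposite strand. The 5' ends of both genes are 393 bp apart. By distance, the peak sat at the start of rpl-12, and lin-54 was the farther gene of the pair in every list.

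lin-52 (WBGene00003035, minus strand, chromosome III, 9824083 to 9824750) encodes a small subunit and had the weakest member peak. In the series list the peak ran from 9825533 to 9825872, with a signal of 79.2 at rank 2849. The summit lay 953 bp upstream, close to the limit of the window, and 271 bp upstream of ZK632.9. That gene lies between the summit and lin-52, on the same strand, 126 bp from lin-52. In replicate 2 the summit stood 984 bp upstream with a signal of 54.0. In replicate 1 no thresholded peak lay in the window, and the strongest unthresholded region there had a signal of 32.5 and an irreproducible discovery rate (IDR, a measure of how poorly a peak repeats) of 0.776. Its summit lay 522 bp upstream and it did not overlap the series peak, so it is not a replicate 1 value of that peak. The thresholded lists stop at an IDR of about 0.01.

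lin-37 (WBGene00003022, minus strand, chromosome III, 7070890 to 7072552), which encodes another MuvB subunit, was the member with no thresholded peak at all. Its strongest unthresholded region in the series had a signal of 51.9 and an IDR of 0.528. Replicate 1 gave 39.6 with an IDR of 0.128, and replicate 2 had 0 regions in the window. The nearest summit of the series list lay 3764 bp from its 5' end, 218 bp from the start of ubc-18, with a signal of 107. Upstream, lin-37 follows ZK418.5 on the same strand after 60 bp.

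The pocket protein gene, lin-35 (WBGene00003020, plus strand, chromosome I, 5807709 to 5815637), had a peak of moderate strength from 5807447 to 5807645. The signal was 85.7 in replicate 1, 186 in replicate 2 and 273 in the series list, at ranks 1386, 970 and 1081. Among the member peaks listed in both replicates, this one differed most between them, with replicate 2 higher by 2.17 times. Among the 1940 peaks found in both replicate lists the median ratio was 1.43, and the lin-35 ratio stood at the 94.0 percentile of them. The summit lay 165 bp upstream of lin-35 and 253 bp upstream of vps-51, a gene for a vesicle tethering subunit that runs the other way. Only the conservative list gave a further summit inside lin-35, in the 3' untranslated region 7805 bp from the 5' end, with a signal of 49.1. Another in that list lay 84 bp past the 3' end with a signal of 32.6, in the window of hmg-3. Both were poorly supported by −log10 q, the authors' measure of peak significance, where higher is stronger. It was 0.799 and 0.216, against 2.86 for the peak upstream of lin-35 in that list.

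The E2F and DP genes were both weak. At efl-1 (WBGene00001161, minus strand, chromosome V, 16958590 to 16965675) the series list held a peak from 16965715 to 16966054, 210 bp upstream, with a signal of 116 at rank 2130. Neither replicate list held it. The unthresholded region there had 50.1 in replicate 1 with an IDR of 0.0128, just past the threshold, and 68.9 in replicate 2 with an IDR of 0.108. The window of fbxa-90, an F-box gene on the other strand, also held the summit, at a distance of 929 bp.

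At dpl-1 (WBGene00001061, plus strand, chromosome II, 9169910 to 9172565) the lists disagreed. The conservative list had a peak from 9169487 to 9169826, 253 bp upstream, with a signal of 94.5 and the full score of 1000. The series list did not hold it. In the unthresholded series list the same interval had the same signal but a score of 227 and an IDR of 0.284. The replicates gave 36.8 with an IDR of 0.241 and 56.0 with an IDR of 0.698. dpl-1 lies wholly inside T23G7.2, which runs on the opposite strand, so the summit also fell within that gene. The nearest summit of the series list lay 32398 bp away. Why a list called conservative holds a peak that the series list lacks was not tested.

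**Figure D3:**
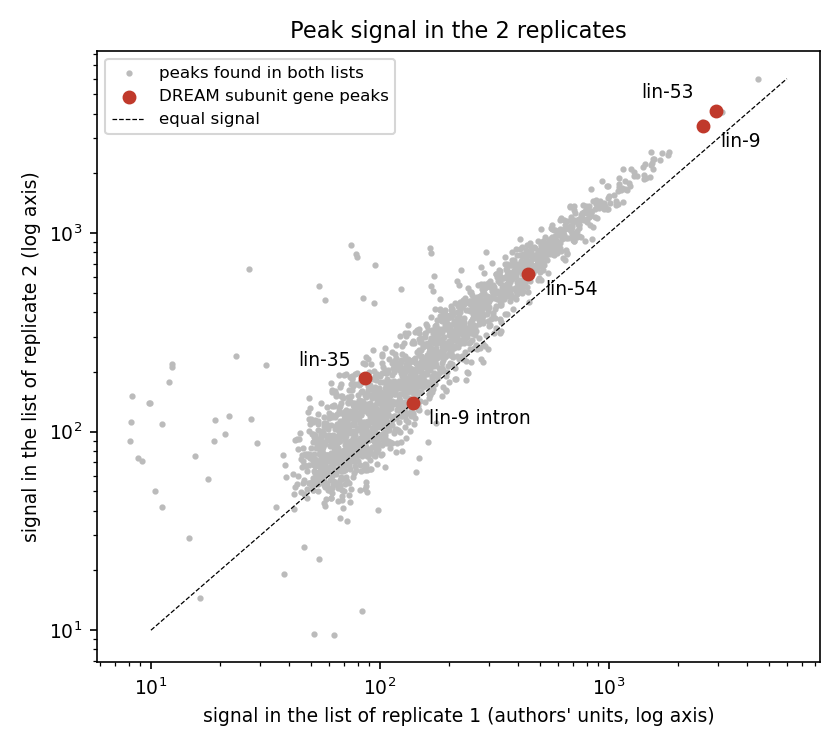
Signal in replicate 1 against replicate 2 (authors' units, log axes) for the 1940 peaks found in both lists, with the member peaks in red and equal signal dashed. lin-53, lin-9 and lin-54 run with the bulk of peaks, the lin-9 intronic peak lies on the line of equal signal, and lin-35 lies above most peaks.

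For the 5 member peaks found in the lists of both replicates, positions and signals were set side by side. lin-52 was listed in replicate 2 alone and efl-1 in neither. The ratio of replicate 2 to replicate 1 was 1.33 at the lin-9 promoter and 1.41 at lin-53, with lin-54 between them, near the median of 1.43 over all pairs. For the lin-9 intron it was 0.994, below most pairs, of which the middle 90% ran from 0.850 to 2.22. Signal has no stated common scale between lists, so these ratios are set only against those of other peaks. Summits of the 5 peaks moved by 3 to 15 bp, where the median over all pairs was 11 bp. In percentiles of their own list, lin-9 and lin-53 stood at 99.8 and 99.9 in both replicates and lin-54 at 87.9 in both, while lin-35 stood at 37.5 in replicate 1 and 64.5 in replicate 2. The lin-9 intronic peak, at 57.5 and 56.3, was therefore above lin-35 in replicate 1 and below it in replicate 2.

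Shared intervals were common among the members. All 6 had their best summit upstream of the 5' end, against 75.7% of the 2947 genes with a summit, and 5 of the 6 shared it with the window of another protein-coding gene, against 52.6%. The median best signal of the 6 was 664 against 238 for all genes with a summit, but the 6 values were spread over almost the whole range of the list, and their median rests on lin-54 and lin-35. The median distance upstream was 221.5 bp for the members and 179 bp for all. When each summit was given only to the nearest 5' end, 4 members kept one in the series list, and lin-54 and lin-52 passed theirs to rpl-12 and ZK632.9. lin-53 was kept there by 1 bp over nra-2, and in the list of replicate 2 nra-2 was the nearer, at 233 bp against 234 bp, so the count of 4 includes a peak that position does not assign. No share of all genes under this rule was set beside that count. Chromosomes differed in how many genes had a summit, from 26.6% on III, 23.9% on I, 16.3% on IV and 15.7% on II to 8.47% on V and 2.05% on X. Of the members, lin-9, lin-37 and lin-52 lie on III and lin-35 and lin-53 on I, the chromosomes with the highest shares, and none lies on X.

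F33H1.4 itself had a promoter peak of 504 in the series list (rank 686), from 181 in replicate 1 and 330 in replicate 2. It was weaker than the peaks of lin-53, lin-9 and lin-54 and stronger than those of lin-35, efl-1 and lin-52.

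The words around the member summits were read within 100 bp to each side, on both strands, at the strongest summit of each of the 6 genes of the series list. The CHR, searched as TTTGAA or TTCGAA, was present at 5 of the 6, all but lin-35. All summits held it in 53.4% of cases and windows centred 500 bp away from them in 49.0%, so the word is common with or without a summit. Within 50 bp it was at 4 of the 6 members and 29.3% of all summits. E2F-like words were searched as GCGCGAAA, as the word TTCCCGC, as the shorter word TTCGCGC (which overlaps the first on the other strand) and as the word GGCGCGC. They were also present at 5 of the 6, again all but lin-35. All summits held one in 18.4% of cases and the distant windows in 5.86%. The words mostly lay away from the summit. Within 50 bp, 2 of the 6 members had one, at lin-52 (GGCGCGC, 9 bp away) and efl-1 (TTCCCGC, 15 bp away), against 13.2% of all summits. At lin-9 the E2F-like word lay 67 bp from the summit, and at lin-54 those words lay 78 and 81 bp away, on the side of lin-54 rather than of rpl-12.

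The remaining listed words were read in the same windows. A GC box (GGGCGG), an E box (CACGTG) and a TATA box (TATAAA) were in none of the 6 windows, against 7.42%, 4.12% and 13.7% of all summits. A GA repeat (GAGAGA) was at lin-9 alone, against 17.6%. CGCG was in all 6, against 55.9% of all summits and 24.3% of distant windows. It is contained in GCGCGAAA, TTCGCGC and GGCGCGC, so its count partly repeats that of the E2F-like words. The G and C content of the 201-bp windows had a median of 38.8% at the 300 strongest summits, no higher than over all summits. Among the members it fell with rank only in part. It was 51.2% at the lin-9 promoter, 48.3% at lin-53, 44.3% at lin-54, 42.3% at efl-1, 36.8% at lin-35 and 31.8% at lin-52, where the median of all summits was 39.3%.

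The 300 strongest summits, taken without those of the members, had words of their own, which were chosen after their values were seen. GGTCTC (read as GAGACC on the other strand) lay within 50 bp of 62.0% of them and in 2.17% of windows centred 300 bp away, and TACGGT lay within 50 bp of 41.7% against 2.67%. Within 100 bp, GGTCTC was at 65.7% of the strongest 300, 30.8% of all summits and 17.3% of the weakest 300. TACGGT was at 53.7%, 21.0% and 7.33% of the same sets. Among the members both words occurred at lin-9 and lin-53 alone. lin-54, lin-35, efl-1 and lin-52 had neither in the series list, and the summit of dpl-1 in the conservative list had GGTCTC, 5 bp from the summit, without TACGGT.

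At lin-9 and lin-53 both words stood on the same strand with their first bases 37 bp apart, GGTCTC first. The lines printed for cap-2 and Y25C1A.8, the nearest genes of the peaks at ranks 2 and 4, show the same spacing, and the line for Y55F3AR.2, at rank 1, shows it with GGTCCC in place of GGTCTC. All of the 5 strongest peaks therefore held this arrangement in one of the forms. In the whole genome the form with GGTCTC at 37 bp occurred 14 times, and 12 of these, in 12 peaks, lay inside the series list. At the other 20 spacings from 25 to 45 bp the same words occurred 1 to 13 times each, and 21 of 121 occurrences (17.4%) lay inside a peak. The pair at any of these spacings was within 100 bp of 33 of the 3250 summits (1.02%), and of 2 of 6500 distant windows. The arrangement was read from the strongest peaks themselves, so these counts describe it and do not test it.

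Not all occurrences at 37 bp are separate sequences. Allowing GGTCCC, there were 19, of which 13 lay inside peaks and 6 outside. Of the 13, 6 were identical over 53 bases and lay on chromosome III in neighbouring pairs 725 to 3225 bp apart, in peaks from rank 43 to rank 1399. The deposited signals at these copies thus differed, but how reads from repeated sequence were placed is not stated. Another 2, at ranks 7 and 18, lay 1431 bp apart and were the same at 51 of 53 bases. All 8 of these occurrences together were also the same at 51 of 53 bases, and at 29 of the 31 between the words. The 13 inside peaks therefore include 8 near copies of one sequence. The other 5 belonged to the 5 strongest peaks, lin-53 and lin-9 among them. Among these 5, 12 of the 31 bases between the words were the same, and among the 6 occurrences outside peaks 0 of 31 were. In the printed lines this stretch begins directly after the first capitalised word of the pair.

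A different word, GTGGAGCGC, was noticed on reading the member sequences. It lay at lin-9 (41 bp from the summit), lin-54 (40 bp) and efl-1 (11 bp), so at 3 of 6 members, against 59 of all 3250 summits (1.82%) and 0.308% of distant windows. At lin-9 it shares 2 bases with TACGGT. At lin-54 and efl-1 it was followed, after 1 base, by CTTGCA, a longer form found at 15 series summits and 150 times in the genome. Of 756 copies of GTGGAGCGC in the genome, 60 (7.94%) lay within 100 bp of a summit. The word was picked because members share it, so no comparison with other summits supports it.

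**Figure D4:**
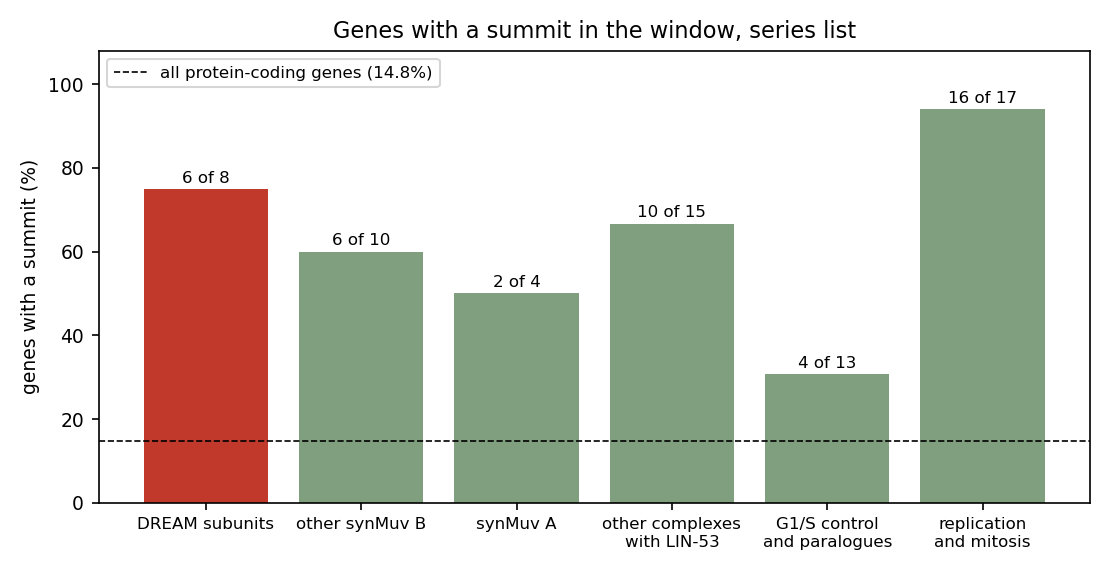
Share of genes with a summit of the series list in their window (%), for the DREAM subunit genes (red) and 5 lists of related genes (green), with the share of all protein-coding genes dashed at 14.8%. Counts stand above the bars, and the list of replication and mitosis genes is the highest at 16 of 17.

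Genes that work with the complex, oppose it or are paralogues of its subunits were read in the same way. The shares of all genes were 14.8% in the series list and 10.4% in both replicates. Of 10 other synMuv B genes, 6 had a summit in the series list and 4 in both replicates. The strongest was tam-1, a RING finger gene, with 538 in replicate 1, 736 in replicate 2 and 1292 in the series list. It was followed by lin-61, which encodes an MBT repeat protein (114, 208 and 323 in the same order, a peak shared with bub-1), and lin-36, a THAP domain gene (94.9, 102 and 196). Of 4 synMuv A genes, lin-38 (436, 759 and 1193) and lin-8 (262, 386 and 651) had a summit. None of these reached the signals of lin-9 and lin-53.

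LIN-53 is also part of histone acetylation, histone deacetylation, Polycomb-type and centromere complexes. Of 15 genes of such complexes, 10 had a summit in the series list and 8 in both replicates. hat-1, which encodes the histone acetyltransferase whose mammalian form pairs with proteins of the LIN-53 type, stood at rank 8 of all peaks, with 1701 in replicate 1, 2529 in replicate 2 and 4214 in the series list. hcp-3, the centromeric histone gene, had 844, 929 and 1766 in the same order, and mes-6, a Polycomb-type gene, had 409, 777 and 1188.

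Genes of G1 to S control and the paralogues of DREAM subunits had summits least often of the 5 lists, at 4 of 13, with 3 in both replicates. cye-1, the cyclin E gene, was the strongest (408 in replicate 1, 579 in replicate 2 and 996 in the series list), followed by lin-23, an F-box gene (142, 204 and 343), and cki-2, a CDK inhibitor gene (63.1, 49.0 and 111). The E2F paralogues efl-2 and efl-3 and the lin-53 paralogue rba-1 had none. By contrast 16 of 17 replication and mitosis genes had a summit and 15 had one in both replicates, with orc-2 the exception. rnr-1, for the large subunit of ribonucleotide reductase, had 806, 1178 and 1982, plk-1, a mitotic kinase gene, had 530, 894 and 1413, and mcm-7, a replicative helicase gene, had 457, 849 and 1299. With each gene counted once, 36 of 57 related genes (63.2%) had a summit, beside 6 of 8 DREAM subunit genes and 14.8% of all genes. In both replicates 31 of them had one, beside 4 of 8 DREAM subunit genes and 10.4% of all genes. These lists were chosen with results of these data known, so the counts are descriptions.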

How the data were processed

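Signal, score and −log10 q were used as deposited by the authors. Per the notes deposited with the samples, each replicate list was built from alignments of that replicate and each series list from those of both, on build ce11. The deposited unthresholded lists add a −log10 of the IDR, and the lowest deposited score of 830 in the thresholded lists goes with an IDR of 0.01. Neither aligner nor caller is named (not given in the sources used here), and read depth is unknown. Signal has no stated common scale between lists, so it ranks peaks within a list. Peaks of 340 bp made up 44.3% of the series list, with a median signal of 95.8.

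Gene models were those of Ensembl release 115 for WBcel235, and bases were read from RefSeq's copy of that build. No peak ran past a chromosome end. Coordinates are 1-based. Replicate peaks were paired by an overlap of at least 1 bp. The assignment of summits to windows was tested on simulated summits. The word search was not tested in this way. With 1 group of 2 biological replicates no p-value was computed. Named genes were the 8 members, genes sharing their summits, F33H1.4, the 3 strongest of each related list and neighbours in rank; other genes were named after their values were seen. The members and lists were chosen with earlier results of these data known. Software versions were numpy 2.4.6, scipy 1.17.1, pandas 2.3.3 and, for plots, matplotlib 3.10.9, under Python 3.11.15.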

Additional observations from a re-analysis of the deposited data

How the results depend on the processing

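The count of 6 members with a summit was 4 to 5 when one replicate's own list was used, 4 in the stronger 50% of the list, 5 with 500 bp upstream and 6 with 2000 bp, in the promoter alone, by peak overlap or in the conservative list. Giving each summit to the nearest 5' end left 4, with lin-53 kept by 1 bp. Shares of all genes were given only for the 1000 bp window in the series, conservative and replicate lists. The counts under the other settings therefore cannot be set against a background. The 4 members found in both replicates stayed at 4 under the 4 alternatives tried. Of 77 alternative values 66 stayed within the limits set and 11 moved. The limits were wide for counts: a fall from 6 to 4 members counted as staying. They were narrow for some percentiles: lin-54 going from 90.4 to 90.1 counted as moved. The tally also includes words chosen from these data, so it does not measure how stable the results are. Ranked by −log10 q, lin-9, lin-53 and lin-54 each fell to the 67.0 percentile, since the highest −log10 q is tied among many peaks. On that ranking lin-52 went from 12.3 to 13.9. In the replicates' own lists lin-35 went from the 66.7 percentile to between 37.5 and 64.5 and lin-54 from 90.4 to 87.9, and lin-54 stood at 90.1 in the conservative list. Within 50 bp of the summit, E2F-like words were at 2 members and the GA repeat at 0, and within 150 bp the GA repeat was at 2. Beyond those ties the cause was not tested. No paired analysis was possible because there is 1 group, so no groups share replicate numbers. Depth is unknown, so a member without a peak was not detected in these lists, which does not show that the protein is absent there.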
